A study of Rattus norvegicus with 36 samples.

Results

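The 9 genes described here belong to the tau, amyloid precursor and lipoprotein systems and were followed through 4 brain regions of rats: Mapt, App, Aplp1, Aplp2, Psen2, Bace1, Adam10, Apoe and Clu. They were taken by gene name, 1 gene per name, and all 9 members were found in the tables of all 4 regions, which list 26142 genes between them. Total RNA was sequenced 6 weeks after rats were exposed to a blast, a pressure wave used in animals to model the brain injury that explosions leave, or to a sham procedure. Hippocampus was sequenced from 5 sham and 5 blast libraries, cerebellum and amygdala each from 4 sham and 5 blast libraries, and anterior cortex from 5 sham and 3 blast libraries. The labels give no genotype, transgene or drug for any group, and the sources used here do not give the strain, sex, age, blast pressure or how often a rat was exposed. A library is named by region, treatment and title number. The same numbers recur in several regions. Whether each number stands for its own animal is not in the labels. The p-values therefore reflect the spread among these libraries alone, which may be technical.

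Tau, the product of Mapt, binds and stabilises microtubules in axons, and its detachment and aggregation mark Alzheimer's disease and the tauopathy described after repeated head injury. The amyloid precursor protein App and its relatives Aplp1 and Aplp2 are membrane proteins. App is cut first by the beta-secretase Bace1 or the alpha-secretase Adam10 and then by gamma-secretase, whose catalytic subunit can be Psen2. The Bace1 route yields amyloid beta peptide and the Adam10 route precludes it. Apolipoprotein E (Apoe) and clusterin (Clu, apolipoprotein J) carry lipid between brain cells, are made largely by astrocytes, and in humans both are risk genes for Alzheimer's disease.

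Coordinates are as deposited, on a build that the files do not name. The genes lie on chromosome 10 (Mapt), 11 (App), 1 (Aplp1 and Apoe), 8 (Aplp2, Bace1 and Adam10), 13 (Psen2) and 15 (Clu), and all are listed as protein-coding. Mapt (ENSRNOG00000005133) spans 92288910 to 92386517 on the plus strand, App (ENSRNOG00000006997) 24425005 to 24641858 on the minus strand, Apoe (ENSRNOG00000018454) 80612895 to 80617057 on the minus strand and Clu (ENSRNOG00000016460) 42640146 to 42665857 on the plus strand. The counts are over whole genes, so isoforms such as those of tau cannot be told apart.

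Libraries held 15426786 to 23460322 counts on genes. The 9 genes took 0.541 to 0.587% of the counts in cerebellum, 0.748 to 0.834% in anterior cortex, 0.72 to 0.873% in hippocampus and 0.778 to 0.916% in amygdala. Markers fitted the labelled regions in part: summed cerebellar markers lay at 3192 to 3838 CPM (counts scaled to a common library size) in cerebellum, and at no more than 83.1 CPM elsewhere, while the list for amygdala overlapped between amygdala (91.8 to 171 CPM) and hippocampus (98.8 to 150 CPM). Hippocampus blast 6, whose title carries a suffix that the labels do not explain, stood apart. It held 8529 CPM of choroid plexus markers and 23644 CPM of oligodendrocyte markers, and its neuronal markers, at 3829 CPM, were the lowest of the region. Amygdala blast 6 had the highest neocortical markers of its region, 398 CPM, which is inside the range of anterior cortex. These are bulk samples, so fewer cells of a type and less RNA per cell cannot be told apart in any value that follows.

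In sham brains the genes ran from among the most abundant transcripts to modest ones, a comparison between genes that needs a value per length. On the scale of the deposited FPKM, which divides a count by gene length and library size, Apoe ranked 14th to 24th among the genes above 0 in each region's sham libraries, with sham means of 2086 ± 198 in hippocampus (SD, n = 5), 2699 ± 130 in amygdala (n = 4), 2730 ± 169 in anterior cortex (n = 5) and 1021 ± 61.4 in cerebellum (n = 4). App, Aplp1, Clu and Mapt followed at means of 241 to 628 FPKM and Aplp2 at 193 to 362. Bace1 lay at 31.8 to 51.9 FPKM, Adam10 at 15.8 to 24.7 and Psen2 at 10.5 to 14.4, so the secretase genes were the least abundant of the set. The place of Mapt rests on the length used: its FPKM of 307 to 331 correspond to a length of 2271 bases, whereas the tables list 8203 bases for the gene, over which its sham means were 85.1 to 91.6 CPM per kilobase. For Aplp1, Bace1 and Adam10 the 2 lengths are equal.

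**Figure D1:**
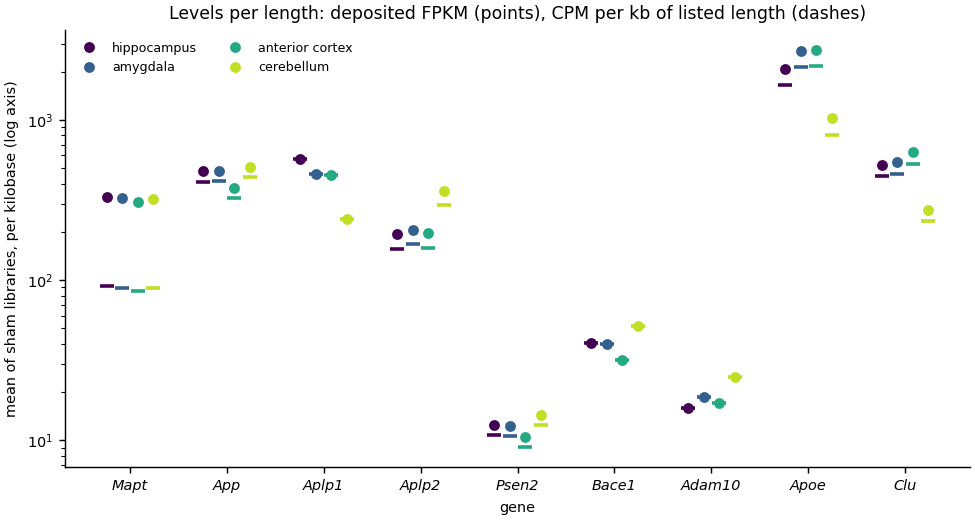
Mean levels of the 9 genes in the sham libraries of each region, per kilobase, on a log axis; points are deposited FPKM and dashes are CPM per kilobase of the gene length listed in the tables. Apoe lies highest and Psen2 lowest on both scales, and Mapt is the gene whose place differs most between the scales.

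The sham libraries answer how the genes differ between regions. Values from here on are CPM scaled by TMM over all 36 libraries unless said otherwise, and the test is edgeR's quasi-likelihood F test over all genes with Benjamini-Hochberg adjustment. The main fit treats the 18 sham libraries as independent, although their title numbers recur between regions. In that fit 8 of 9 members differed between regions at an adjusted p under 0.05, beside 81% of the 16381 genes tested. A regional difference was thus the rule for all genes. The exception was Psen2 (adjusted p = 0.182), which was called without hippocampus sham 18 (adjusted p = 0.0196). Cerebellum stood furthest apart. There Aplp1, Apoe and Clu were at their lowest and Aplp2, Bace1 and Adam10 at their highest, while App and Mapt differed between their highest and lowest regions by no more than 1.18-fold.

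**Figure D2:**
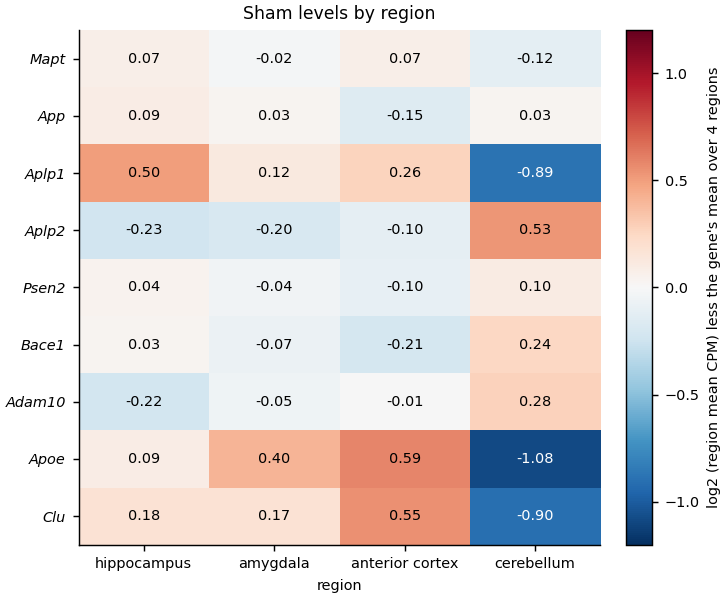
Sham level of each gene in each region, as log2 of the mean CPM less the gene's own mean over the 4 regions; red is higher and blue lower. In the cerebellum column Apoe (-1.08), Clu (-0.90) and Aplp1 (-0.89) are low and Aplp2 (0.53) is high.

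The App relatives Aplp1 and Aplp2, cell-surface proteins that are cut by the same secretases, ran in opposite directions. Aplp1 in sham hippocampus was 1306, 1458, 1325, 1201 and 1275 CPM, and in sham cerebellum 508, 505, 486 and 509 CPM. Aplp2 in the same libraries was 585, 557, 518, 577 and 520 CPM in hippocampus and 965, 912, 919 and 947 CPM in cerebellum. Neither gene's values overlapped between these 2 regions, and the higher region of one was the lower of the other. The log2 difference, hippocampus less cerebellum, was 1.38 for Aplp1 (SE 0.06, adjusted p = 2.4e-14) and -0.77 for Aplp2 (SE 0.05, adjusted p = 4.6e-11), by edgeR's test. The other regions kept to the hippocampal side: sham means of Aplp1 were 1115 CPM in anterior cortex and 1009 CPM in amygdala, and those of Aplp2 602 and 565 CPM. A ratio of the counts of 2 genes in 1 library needs no scaling between libraries. Per Aplp1 count there were 0.382 to 0.481 Aplp2 counts in sham hippocampus, 0.521 to 0.561 in anterior cortex, 0.525 to 0.593 in amygdala and 1.8 to 1.9 in cerebellum. As a description with no test, the gene closest to Aplp1 over the 18 sham libraries was Tmsb4x (Pearson r = 0.996), and those closest to Aplp2 were Impg1 (0.989), Tmem266 (0.986) and Gabra6 (0.985), a GABA receptor subunit of cerebellar granule cells. All these points share region and library, and cerebellum alone can give such an r.

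The regions upstream of the starts of Aplp1 and Aplp2 are shown because these relatives ran in opposite directions between hippocampus and cerebellum. Whether the letters bear on the levels was not tested. Each is the 250 bases before the gene's start in RefSeq's GRCr8 assembly, read 5′ to 3′ on the gene's strand, at chr1:94834611-94834860 (minus strand) for Aplp1 and chr8:37920032-37920281 (minus strand) for Aplp2. Capitals mark the GC box GGGCGG, searched on both strands as GGGCGG and CCGCCC.
Aplp1: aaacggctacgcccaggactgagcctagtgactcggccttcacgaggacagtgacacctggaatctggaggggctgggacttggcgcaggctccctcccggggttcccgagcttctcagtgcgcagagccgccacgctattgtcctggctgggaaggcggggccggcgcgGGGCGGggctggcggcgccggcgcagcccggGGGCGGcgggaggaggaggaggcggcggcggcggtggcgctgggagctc
Aplp2: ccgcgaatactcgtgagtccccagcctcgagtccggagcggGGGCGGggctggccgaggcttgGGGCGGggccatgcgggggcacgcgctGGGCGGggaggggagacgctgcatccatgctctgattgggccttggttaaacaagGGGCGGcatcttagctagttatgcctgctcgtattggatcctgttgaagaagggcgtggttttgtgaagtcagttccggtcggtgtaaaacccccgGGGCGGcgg
The Aplp1 window is 73.6% G and C and holds 2 GC boxes, and the Aplp2 window is 64.8% G and C and holds 5. Among 33465 windows of genes given by RefSeq, 30.47% hold at least 1 GC box and 3.667% hold 4 or more, at a median GC content of 51.2%. Windows were found for 7 of the 9 members, 9 windows in all, since Apoe has 3; the table has none for Mapt or Clu. App had 1 box, Adam10 had 2, and Psen2 and Bace1 had none. The 3 Apoe windows held 0, 2 and 2 boxes. TATAAA, searched on both strands, was in none of the 9 windows and in 12.93% of all windows. A match describes these letters and is not a binding site.

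Apoe and Clu, the lipid carriers, were lowest in cerebellum. Apoe in the sham libraries was 1204, 1207, 1079 and 1151 CPM in cerebellum, 2663, 2957, 2414, 2345 and 2712 CPM in hippocampus, 3403, 3000, 3124 and 3474 CPM in amygdala, and 3561, 3576, 4028, 3620 and 3669 CPM in anterior cortex. Each region lay above the one before it with no overlap. Anterior cortex exceeded cerebellum by 1.65 on the log2 scale (SE 0.07, 3.14-fold, adjusted p = 8.29e-14, edgeR). Amygdala against anterior cortex stood at the threshold (-0.18, adjusted p = 0.0506). It passed with a block on title numbers (0.0469), with DESeq2 (0.0201), with DESeq2's size factors (0.0447), and without hippocampus sham 12 (0.0321), hippocampus sham 16 (0.0432) or amygdala sham 18 (0.0374). With library totals alone it shrank to -0.02 and the libraries of these 2 regions overlapped, 3134 to 3464 CPM in amygdala and 3171 to 3675 CPM in anterior cortex. By edgeR's test amygdala exceeded hippocampus in Apoe (adjusted p = 0.00187). Clu in sham cerebellum was 375, 486, 323 and 426 CPM, against means of 849 CPM in hippocampus, 847 CPM in amygdala and 1102 CPM in anterior cortex. Hippocampus and amygdala did not differ beyond their spread (adjusted p = 0.942), and hippocampus exceeded cerebellum by 1.07 (SE 0.09, adjusted p = 2.96e-09). The same libraries differed in 12 astrocyte markers, of which none was under 1 CPM. Their sum ran from 5603 to 5865 CPM in sham cerebellum, 5110 to 5652 in hippocampus, 6313 to 8050 in anterior cortex and 5480 to 6514 in amygdala. The mean log2 level of the same 12 markers was lowest in cerebellum, 7.68 to 7.74 against 7.76 to 7.96 in hippocampus, with no overlap, whereas by their sum 3 of the 4 cerebellar libraries lay above every hippocampal one. Microglial markers were lowest in cerebellum, 163 to 184 CPM against 314 to 381 in hippocampus, and the part of either cell type's markers in the Apoe and Clu levels was not tested. Genes closest to Apoe over the sham libraries were Cspg5 (r = 0.995), Meis2 (0.992) and Arhgdia (0.99), and to Clu they were Arhgap25 (0.986), Psat1 and Olfml1 (both 0.981).

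The secretase genes moved less. Bace1, the beta-secretase, had sham means of 106.7 CPM in cerebellum, 92.2 in hippocampus, 86.1 in amygdala and 77.8 in anterior cortex. Cerebellum exceeded hippocampus (adjusted p = 0.00354), and the next 2 steps in that order did not pass (adjusted p = 0.197 and 0.078). Adam10, the main alpha-secretase of neurons, had sham means of 86.1 CPM in cerebellum, 70.6 in anterior cortex, 68.4 in amygdala and 60.9 in hippocampus. Cerebellum exceeded anterior cortex by 0.31 (adjusted p = 9.53e-05), anterior cortex and amygdala did not differ beyond their spread (adjusted p = 0.585), and hippocampus lay below amygdala at an adjusted p of 0.0384. That last call was lost in 10 of 18 fits with 1 library left out, namely without hippocampus sham 10, 12 or 18, amygdala sham 13, 16 or 18, or any cerebellar library (adjusted p over the 18 fits from 0.0221 to 0.106). Bace1 was thus lowest in anterior cortex and Adam10 lowest in hippocampus, by their means. Adam10 counts per Bace1 count were lowest in sham hippocampus, 0.554 to 0.715, and highest in sham anterior cortex, 0.86 to 0.991. Psen2, the presenilin subunit, had sham means of 20.5 to 23.5 CPM in the 4 regions. The closest genes over the sham libraries were Mef2a for Bace1 (r = 0.966), Sp1 for Adam10 (0.961) and Ankef1 for Psen2 (0.847).

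Tau and App, the central substrates, were the flattest of the called genes. Mapt had sham means of 766 CPM in anterior cortex and in hippocampus, 717 in amygdala and 671 in cerebellum. No neighbours in that order differed beyond their spread (adjusted p from 0.178 to 0.939), while hippocampus exceeded cerebellum by 0.18 (SE 0.06, adjusted p = 0.0086). App had sham means of 1418 CPM in hippocampus, 1369 in cerebellum, 1367 in amygdala and 1202 in anterior cortex. The first 3 did not differ beyond their spread from their neighbours (adjusted p = 0.625 and 0.818), and anterior cortex lay below amygdala at an adjusted p of 0.0385. This call was lost in 7 of 18 fits, without amygdala sham 12, 13 or 16 or anterior cortex sham 10, 12, 13 or 18 (adjusted p over the 18 fits from 0.00149 to 0.124). The Mapt call turned on scaling: with library totals alone the difference between regions had an adjusted p of 0.329, and Psen2 was called in its place at 0.00473. The Mapt call was also lost without cerebellum sham 13 (adjusted p = 0.061), 16 (0.0626) or 18 (0.0931), and its hippocampus against cerebellum call without cerebellum sham 18 (0.0562). Library totals shift the median of all genes by up to -0.23 on the log2 scale (anterior cortex less cerebellum), so the smaller differences between regions hold only relative to most genes. The closest genes over the sham libraries were Mief2 for Mapt (r = 0.864) and Slc45a1 for App (0.909).

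Between pairs of regions, the members' calls are read beside the share of all genes called in the same direction. Hippocampus against amygdala had 3 members called (all genes, 33.2%), 1 higher (16.5%) and 2 lower (16.7%) in hippocampus. Hippocampus against anterior cortex had 7 (51%), 3 higher (24.7%) and 4 lower (26.3%) in hippocampus, and amygdala against anterior cortex had 2 (31.5%), with App higher (15.3%) and Clu lower (16.2%) in amygdala. Of those 7, the Aplp2 call (adjusted p = 0.0451) was lost in 13 of 18 fits with 1 library left out, in which its adjusted p ran from 0.0276 to 0.137, and with library totals it was 0.774. Over all genes, the 3 pairs with cerebellum had the most calls. Hippocampus against cerebellum had 7 members called (62.8%), 4 higher (31.4%) and 3 lower (31.4%) in hippocampus. Amygdala against cerebellum had 6 (64.7%), 3 higher (33%) and 3 lower (31.7%) in amygdala. Anterior cortex against cerebellum had 8 (68.7%), 4 higher (34.6%) and 4 lower (34.1%) in anterior cortex. Of those 8, Mapt was lost without cerebellum sham 18 (adjusted p = 0.0941) and turned to -0.06 with library totals (adjusted p = 0.377), and App was lost without anterior cortex sham 10 (0.0518) or 13 (0.0503). Library totals also ended the calls of Adam10 for hippocampus against anterior cortex (0.108) and of Clu for amygdala against anterior cortex (0.0661). Of 64 other genes of these pathways, 61 differed between regions, beside 81% of all genes tested. Hippocampus exceeded cerebellum for 29 of the 64 and lay below it for 19, beside 31.4% of all genes in each direction. The median of the 64 was 0.13 on the log2 scale beside -0.01 for all genes. Counts for single lists are read beside the same shares. Among genes for proteins that break down amyloid peptide, 1 was higher and 4 were lower in hippocampus than in cerebellum; of these, chosen after their values were seen, Ece1 (endothelin-converting enzyme) differed by -1.19, Ide (insulin-degrading enzyme) by -0.66 and Mme (neprilysin) by -0.62. Of the other microtubule-associated proteins 5 of 7 were higher in hippocampus than in cerebellum and 0 lower, with Map2, the dendritic relative of tau, at 1.68.

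The main question of the design is whether blast changed these genes. None of the 9 members passed an adjusted p of 0.05 in any region by edgeR's test, beside 0% of all genes called in hippocampus, 0% in amygdala, 0.00634% in anterior cortex (1 gene) and 0% in cerebellum. Almost nothing was called among all genes, so the members' count matches the background. At an unadjusted p under 0.05 stood 0, 0, 1 and 0 members, beside 5.24%, 5.22%, 5.82% and 6.82% of all genes in the same order. DESeq2 called 0, 10, 9 and 41 genes in those regions and no member. In the authors' deposited table the smallest adjusted p of a member was 0.709 (Aplp1 in cerebellum).

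**Figure D3:**
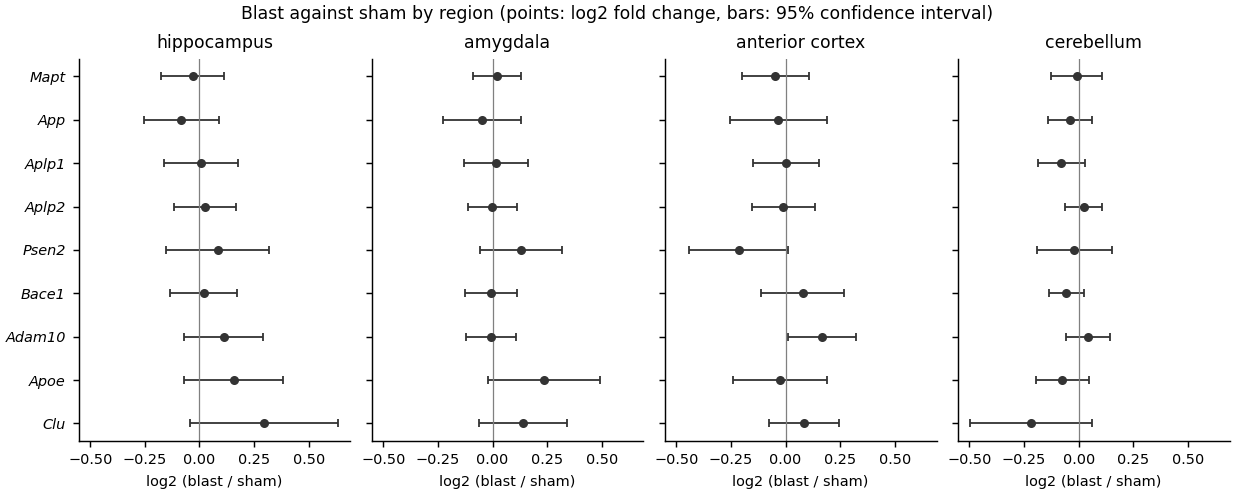
Log2 fold change of blast over sham for each gene in each region, with 95% confidence intervals from edgeR's fit. Estimates run from -0.22 to 0.30, and the only interval that leaves out 0 is that of Adam10 in anterior cortex, which does not pass adjustment.

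The intervals show what sizes remain possible. Log2 differences of the members ran from -0.08 to 0.30 in hippocampus, -0.22 to 0.04 in cerebellum, -0.05 to 0.24 in amygdala and -0.22 to 0.17 in anterior cortex. For Mapt the 95% interval of the fold was 0.885 to 1.08 in hippocampus, 0.916 to 1.08 in cerebellum, 0.94 to 1.09 in amygdala and 0.87 to 1.08 in anterior cortex. For App it was 0.839 to 1.06, 0.907 to 1.04, 0.854 to 1.1 and 0.839 to 1.14 in the same order. Neither tau nor App messenger RNA differed detectably. Aplp1, Aplp2 and Bace1 had estimates between -0.08 and 0.08 in every region. Larger changes remain possible for Clu and Apoe. The interval of the fold for Clu was 0.971 to 1.55 in hippocampus and 0.708 to 1.04 in cerebellum. For Apoe in amygdala it was 0.986 to 1.4.

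**Figure D4:**
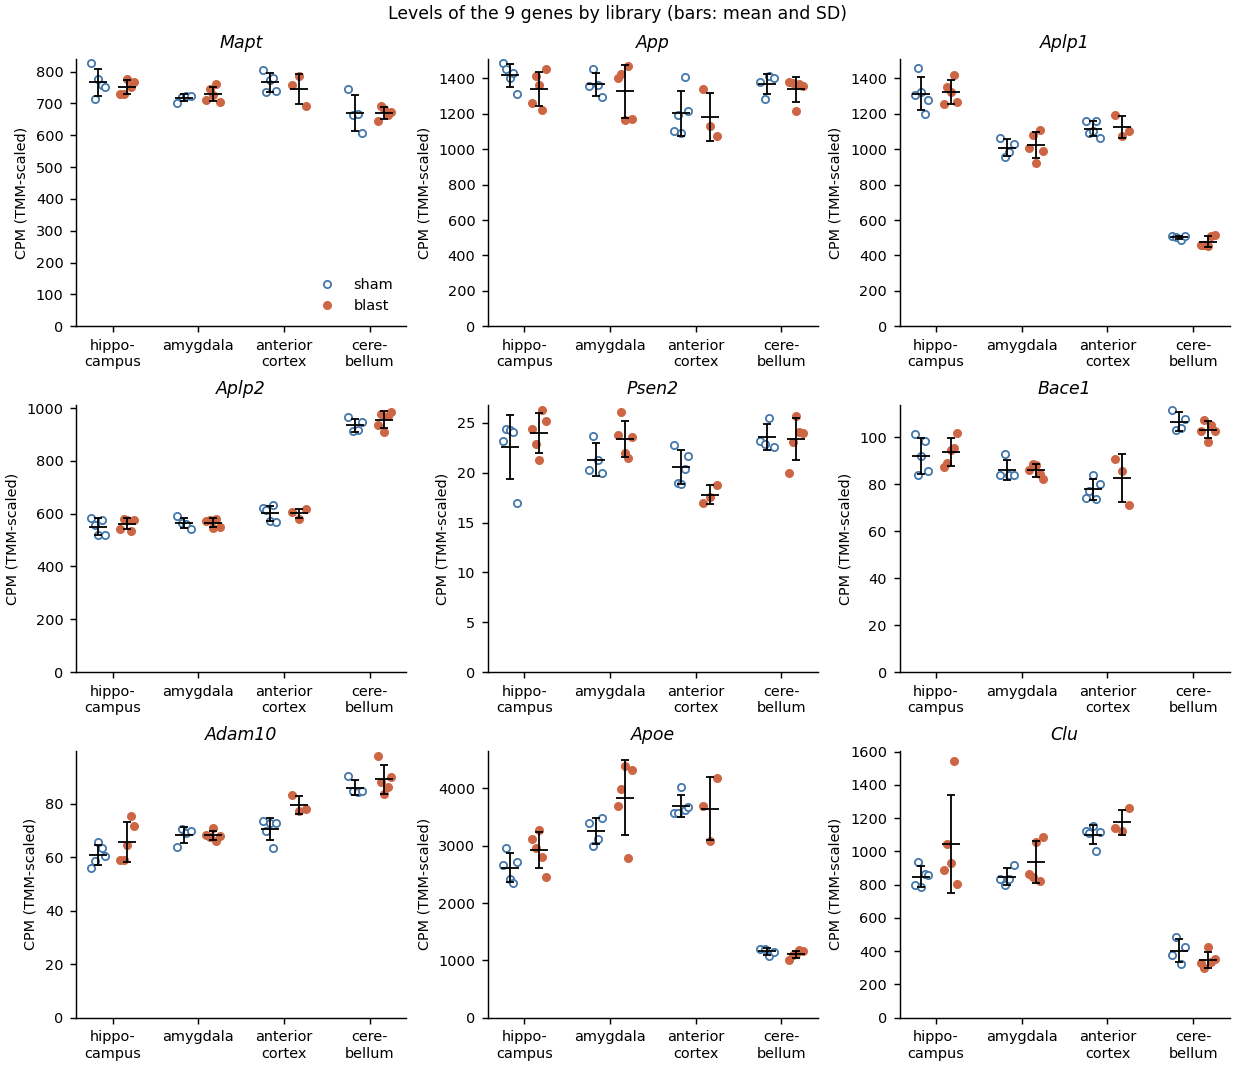
CPM of each gene in every library by region, sham as open blue circles and blast as filled orange circles, with the group mean and SD. Blast and sham points overlap in every panel except for Adam10 and Psen2 in anterior cortex, and Clu of hippocampus blast 6 stands at 1545 CPM.

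Clu had the largest estimate. In hippocampus it was 891, 1046, 932, 1545 and 807 CPM after blast and 796, 936, 786, 867 and 860 CPM after sham. Blast 6 lies far above the rest, blast 2 also lies above every sham library, and the other 3 blast libraries lie inside the sham range. The log2 difference of Clu was 0.30 (SE 0.16, adjusted p = 0.816, edgeR), and without blast 6 it was 0.11 (SE 0.08, adjusted p = 0.999). Markers of other cell types were also extreme in blast 6, which had the most oligodendrocyte and the least neuronal marker RNA of the region, as given above. Markers of choroid plexus, the secretory epithelium of the ventricles, were highest there too, and 10 were found in the hippocampal table. Their sum was 5.04, 2793, 266, 8529 and 58.4 CPM in the blast libraries and 15.7, 537, 51.1, 11.4 and 10.9 CPM in the sham libraries of hippocampus, and none of the 10 averaged under 1 CPM. Once the choroid plexus score entered the fit, the Clu difference was 0.06 (SE 0.12, adjusted p = 1), and with the astrocyte score it was 0.19 (SE 0.18). Since choroid plexus, oligodendrocyte and neuronal markers are all extreme in blast 6, their parts in its Clu value cannot be told apart. Clu in cerebellum was 327, 298, 425, 336 and 355 CPM after blast against 375, 486, 323 and 426 CPM after sham, and the choroid plexus sum was 677, 26.3, 1820, 28 and 92.6 CPM against 614, 2664, 29.2 and 1182 CPM. The cerebellar Clu difference was -0.22 (SE 0.13, adjusted p = 0.755), and -0.10 (SE 0.08, adjusted p = 0.8) with the choroid plexus covariate. With the astrocyte covariate its sign turned, to 0.06 (adjusted p = 0.999). Cerebellum sham 13, the highest for Clu, was also the highest for the choroid plexus markers, whose part in these values was not tested beyond the covariate fits. The test of a difference in blast effect between regions gave an adjusted p of 0.923 for Clu by edgeR, and called no member and 0.0117% of all genes.

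**Figure D5:**
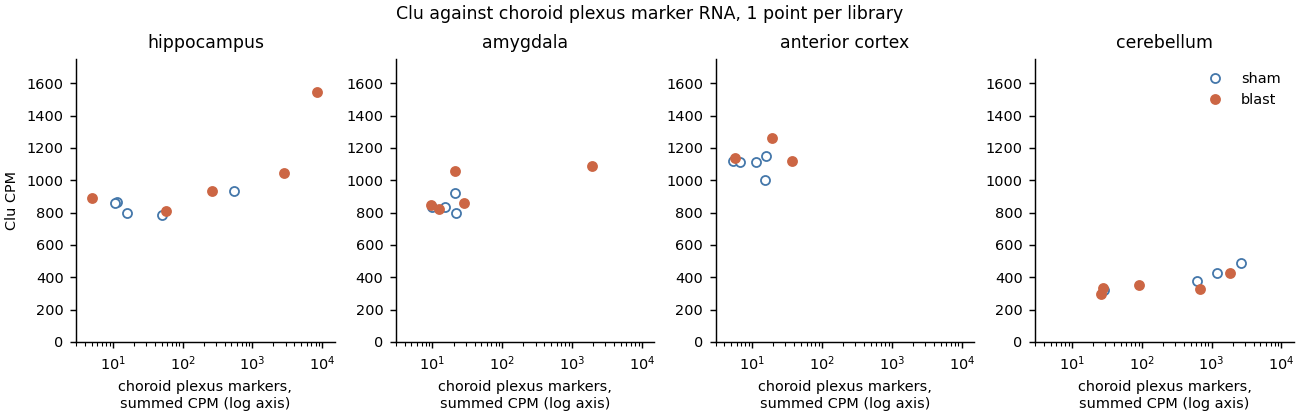
Clu CPM of each library against the summed CPM of the choroid plexus markers, on a log axis, by region; open circles are sham and filled circles are blast. The highest Clu in hippocampus (1545 CPM) and in cerebellum (486 CPM) belong to the libraries with the most choroid plexus RNA, 8529 and 2664 CPM. Among the sham groups anterior cortex has the highest mean Clu, with at most 15.8 CPM of choroid plexus markers.

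Apoe in amygdala was the next largest. It was 3694, 3982, 4392, 2786 and 4322 CPM after blast and 3403, 3000, 3124 and 3474 CPM after sham. The other blast libraries, 4 of 5, lie above all sham libraries whereas blast 6 lies below them all. The log2 difference of Apoe was 0.23 (SE 0.12, adjusted p = 0.901, edgeR), and without amygdala blast 6 it was 0.33 (SE 0.07), which still did not pass (adjusted p = 0.754). Blast 6 is the library with neocortical markers at 398 CPM, and it held 7248 CPM of oligodendrocyte markers against 3306 to 4609 in the rest of the blast group; their part in the Apoe value was not tested. With the astrocyte score as a covariate the Apoe difference was 0.18 (SE 0.08). In hippocampus Apoe was 3124, 2956, 3281, 2803 and 2456 CPM after blast and 2663, 2957, 2414, 2345 and 2712 CPM after sham, a difference of 0.16 (SE 0.10, adjusted p = 0.816). In anterior cortex and cerebellum the Apoe differences were -0.03 and -0.07. The genes whose levels ran most like Apoe once group means were taken out, over 36 libraries, were Gnai2 (r = 0.847), Agt (0.84) and Cst3 (0.788), the first a G protein subunit and the others angiotensinogen and cystatin C. For Clu they were Pbxip1 (0.923), Ocln (0.907) and Sod3 (0.9), and for App they were Got1 (0.86), Clstn1 and Pcmt1 (both 0.856). A library far from its group mean weighs heavily in such an r, and Clu of hippocampus blast 6 (1545 CPM) is one. Its part in these r values was not tested.

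Adam10 and Psen2 in anterior cortex were the only members whose groups did not overlap in CPM scaled within the region, 2 of 9 in the region where 4.22% of all genes did not overlap. Adam10 was 83.4, 77.4 and 78.1 CPM after blast and 73.5, 70, 72.9, 63.4 and 73 CPM after sham. Its log2 difference was 0.17 (SE 0.07, adjusted p = 0.842). Psen2 was 17, 17.6 and 18.8 CPM after blast and 22.8, 19, 18.8, 20.4 and 21.6 CPM after sham. Its log2 difference was -0.22 (SE 0.10, adjusted p = 0.842, edgeR). The highest blast value, 18.81 CPM, lay just under the lowest sham value, 18.85 CPM. The CPM printed for both genes are scaled over all 36 libraries. The separation of Psen2 depended on scaling. With library totals alone its groups overlapped, as blast 6 was 16.85 CPM and sham 12 was 16.84 CPM. In deposited FPKM these libraries also overlapped, at 9.477 and 9.473. In the other regions no member's groups were apart, where 0.847% (hippocampus), 1.71% (amygdala) and 2.21% (cerebellum) of all genes were. Averaged over the 4 regions by limma, Adam10 had a blast less sham difference of 0.08 (SE 0.03, adjusted p = 0.599). By that test no member was called, beside 0.0467% of all genes (0.0292% higher and 0.0175% lower after blast). Its estimates were above 0 in hippocampus (0.11), anterior cortex (0.17) and cerebellum (0.04) and near 0 in amygdala.

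Count ratios within libraries gave 1 separation, which was found after the values were seen, among 3 ratios in 4 regions. In cerebellum there were 1.91 to 2.14 Aplp2 counts per Aplp1 count after blast and 1.8 to 1.9 after sham. The groups do not overlap and their gap is small. In hippocampus the same ratio was 0.378 to 0.453 after blast and 0.382 to 0.481 after sham. Neither Aplp1 (-0.08, adjusted p = 0.769) nor Aplp2 (0.02, adjusted p = 0.925) passed on its own in cerebellum.

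The wider pathways gave no call either. The 64 measured genes came from 8 lists. These held gamma-secretase, other App-cleaving proteases, amyloid degradation, and App adaptors and sorting. They also held tau kinases and phosphatases, other microtubule-associated proteins, lipoprotein receptors, and lipid transfer with other apolipoproteins. Of the 64, 0 passed the adjusted threshold in any region by edgeR. An unadjusted p under 0.05 was found for 1, 3, 6 and 2 in hippocampus, amygdala, anterior cortex and cerebellum. The shares of all genes at that cut were 5.24%, 5.22%, 5.82% and 6.82% in the same order. Medians of the 64 log2 differences were -0.02, 0.01, 0.01 and -0.01, beside 0.0023, 0.0033, 0.00051 and -3.5e-05 for all genes. The genes of smallest p were as follows, none past the threshold. In hippocampus the lipid-transfer genes Apoc1 (0.59), Pltp (0.30) and Lcat (0.43) had the smallest p on the higher side, and Mark4 (-0.20), a kinase of microtubule-associated proteins, Abca7 (-0.13) and Thop1 (-0.17) on the lower. In amygdala they were Pltp (0.23), the App adaptor Apba3 (0.28) and the lipoprotein receptor Scarb1 (0.14), against Map7 (-0.17), the gamma-secretase subunit Aph1b (-0.31) and lipoprotein lipase Lpl (-0.40). In anterior cortex they were the lipid exporter Abca1 (0.32), Lpl (0.36) and the Apoe receptor Lrp1 (0.21), against the gamma-secretase subunit Psenen (-0.38, adjusted p = 0.842), the tau kinase Cdk5 (-0.24) and Abca7 (-0.15). In cerebellum they were Lrp1 (0.15), the calcineurin subunit Ppp3ca (0.15) and Map4 (0.09), against the sorting receptor Sort1 (-0.15), Mme (-0.30) and the Cdk5 activator Cdk5r2 (-0.11). Psenen and Psen2, which encode subunits of gamma-secretase, were both lower by estimate in anterior cortex, while the estimate of Ncstn, another subunit, was 0.02 there.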

How the data were processed

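Total RNA was extracted with Qiazol and RNeasy columns and made into libraries with a NEBNext Ultra kit, per the labels' protocols. Per the submitters' processing notes, CASAVA was among the tools. Aligner, counter, genome build and annotation release were not given in the sources used here. For each region the authors deposited 1 table. Per the file headers it holds read counts and FPKM per gene and library, a log2 fold change and p-values. A further value per library, under a header that gives only the library's name, was taken to be a normalized signal.

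The counts entered the tests. The FPKM were used for levels per length, the deposited log2 values and p-values are quoted only where named, and the signal was not used further. Within a region, genes passing filterByExpr were scaled by TMM and tested by edgeR 4.0.16 (quasi-likelihood F test, R 4.3.3) for blast against sham. Sham regions were compared in 1 fit of 18 libraries, and differences in the blast effect in 1 fit of 36. The mean effect over regions came from limma 3.58.1 (voom, with a correlation within title numbers). Threshold was a Benjamini-Hochberg adjusted p of 0.05 over all genes tested; all 9 members passed the filter in every fit. Alternatives were DESeq2 1.42.0, other scalings, no filter, covariates of marker scores (choroid plexus, astrocyte) and a block on title numbers. Each library was also left out in turn, or each title number in the fits of 36 libraries. The members and gene lists were chosen with earlier results of these data known. Named besides the members were, per region, the 3 pathway genes of smallest p in each direction, since none was called, and the genes of highest Pearson r with a member. Of 65 pathway genes listed, 64 were in the tables. Patterns were compared on log2 CPM with a prior count of 2. Promoter windows are RefSeq's (GRCr8), matched by symbol. The fits were tested on simulated data, in which every planted change was larger than the blast differences estimated for the members. That test therefore does not show how often differences of the members' size would be called. A withheld item is not reported here.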

Additional observations from a re-analysis of the deposited data

Results flagged for a closer look

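In 8 of the 63 groups of 4 or 5 libraries examined, 1 library lay far from the others by Dixon's criterion, where chance gives about 1 in 20 groups, or 3.15. Values are CPM. Mapt in amygdala sham 12 was 701.69, with the other sham libraries of that region at 720 to 724. App in cerebellum blast 5 was 1214.5 against 1356 to 1382, and Aplp1 in cerebellum sham 16 was 486.49 against 505 to 509. Psen2 in hippocampus sham 18 was 16.924, against 23.2 to 24.4 in the other sham libraries; it is the least counted gene of the set. Bace1 in amygdala sham 13 was 92.77 against 83.8 to 83.9, and Adam10 in cerebellum sham 10 was 90.535 against 84.5 to 84.8. In anterior cortex, Apoe in sham 13 was 4027.9 against 3561 to 3669, and Clu in sham 16 was 1004.1 against 1113 to 1153. Clu of hippocampus blast 6, 1545 CPM, did not meet the criterion.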

How the results depend on the processing

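No member was called for blast under any alternative run. With the number of called genes as the measure, DESeq2 gave 10 in amygdala, 9 in anterior cortex, 41 in cerebellum and 4 for the difference between regions; no filter gave 2 in anterior cortex and 1 in cerebellum; the choroid plexus covariate gave 0 in anterior cortex; and edgeR with no replicate block gave 15 for the mean effect. Leaving out 1 library gave 0 to 1 called genes in amygdala and in hippocampus each, and 0 to 2 in cerebellum and in anterior cortex each, and leaving out 1 number gave 0 to 2 for the difference between regions and 3 to 16 for the mean effect.

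The causes of sign changes were not tested. The differences concerned were not called, except for Mapt in anterior cortex less cerebellum, and Clu in cerebellum (-0.22) was the farthest from 0 of the blast differences. With the astrocyte covariate, blast differences were 0.00998 for Aplp2 in amygdala, 0.0661 for App and 0.00942 for Aplp2 in anterior cortex, and in cerebellum 0.00467 for Mapt, 0.00305 for Aplp1, 0.0512 for Psen2, 0.0348 for Apoe and 0.0613 for Clu. With the choroid plexus covariate they were -0.0614 for Aplp1 in hippocampus, and 0.00877 for Aplp2 and 0.00394 for Bace1 in amygdala. With no filter Aplp2 in amygdala was 0.000243. The mean effect of Psen2 was -0.00233 with DESeq2's size factors and -0.00247 with library totals. In sham libraries scaled by library totals, hippocampus less amygdala was -0.0105 for App and -0.0572 for Clu, hippocampus less cerebellum was -0.0919 for App, anterior cortex less cerebellum was -0.0588 for Mapt, and amygdala less anterior cortex was 0.0741 for Mapt, 0.0241 for Aplp1, 0.077 for Aplp2 and 0.125 for Adam10. In the fit of all 36 libraries, hippocampus less anterior cortex was -0.000809 for Mapt.

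With 1 library left out, blast differences that crossed 0 ran in hippocampus from -0.0566 to 0.00456 (Mapt), -0.0228 to 0.0469 (Aplp1), -0.0016 to 0.126 (Psen2) and -0.0146 to 0.0614 (Bace1). In amygdala they ran from -0.0153 to 0.0512 (Aplp1), -0.0199 to 0.0195 (Aplp2), -0.0198 to 0.0319 (Bace1) and -0.0401 to 0.00913 (Adam10). In anterior cortex they ran from -0.0882 to 0.00124 (Mapt), -0.128 to 0.0339 (App), -0.0417 to 0.0316 (Aplp1), -0.0294 to 0.0122 (Aplp2) and -0.138 to 0.0802 (Apoe), and in cerebellum from -0.0532 to 0.0383 (Mapt) and -0.0619 to 0.0313 (Psen2). Mean effects were refitted without 1 title number and all its libraries. They ran from -0.0277 to 0.015 (Mapt), -0.0243 to 0.0135 (Aplp1), -0.000137 to 0.0277 (Aplp2), -0.0299 to 0.0176 (Psen2) and -0.0012 to 0.0379 (Bace1). The sham fits again left out 1 library. Sham differences that crossed 0 were Clu for hippocampus less amygdala (-0.0282 to 0.0527), Mapt for hippocampus less anterior cortex (-0.0237 to 0.0287), Psen2 for hippocampus less cerebellum (-0.101 to 0.0344) and for amygdala less anterior cortex (-0.000239 to 0.0949), and App for amygdala less cerebellum (-0.056 to 0.0074).

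Title numbers recur between regions, but the labels do not say that a number is an animal. Not every same-number pair deviated together at r over 0.1 (10 of 24 sham and 7 of 24 blast pairs). The own number gave the highest match in 22 of 24 sham and 13 of 24 blast pairs. This is a hint from the data that libraries with the same number may share an animal. With the replicate block the difference between regions called 0 genes; in sham libraries Adam10 for hippocampus less amygdala had an adjusted p of 0.051, Apoe for amygdala less anterior cortex 0.0469 and Mapt for amygdala less cerebellum 0.028. Psen2 held the fewest counts, 253 to 557 per library, and anterior cortex had 3 blast libraries.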
